A study of Mus musculus with 132 samples.

Results

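The 45 genes described here encode the glucose transporters and enzymes that carry glucose to pyruvate, the proteins that handle lactate and bring pyruvate into mitochondria, and the enzymes of the tricarboxylic acid (TCA) cycle. They were chosen by name, for their place in these pathways, and all 45 were found among the 32245 genes of the deposited mouse table, each with counts in at least 1 cell. By role they were 2 glucose transporters, 14 glycolytic enzymes, 3 genes of lactate and monocarboxylate handling, 7 genes of pyruvate entry, 16 genes of the TCA cycle, and 3 genes for the NADP-dependent isocitrate dehydrogenases and the cytosolic malate dehydrogenase. The transporters and glycolytic enzymes together are called the 16 glycolysis genes below.

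Mouse embryos of crosses between C57BL/6 x DBA F1 animals were collected at the 2-cell stage and cultured in KSOM medium that held either a synthetic copy of the microRNA miR-381-3p (mimic) or, in control, a scrambled mimic at an equal dose of 5 or 10 µM. Once embryos had 8 cells (day 2.5) or 32 cells (day 3.5), single cells were picked with capillaries from 3 to 5 embryos for each group and sequenced with Smart-seq2, which reads polyadenylated RNA along the transcript and carries no molecular identifiers. Of the 132 cells, 30 were 8-cell control, 24 were 8-cell mimic, and 39 each were 32-cell control and 32-cell mimic. The labels give no dose for a cell, but in the study's text the higher dose goes with the earlier stage for control and mimic alike, so dose and stage cannot be told apart. The embryo that a cell came from is not named. Each group was therefore treated as 1 sample, no test between groups was made, and the spread between cells given below is not a spread between embryos.

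Counts were summed over the cells of a group and expressed per 1000000 counts, mitochondrially encoded genes left out (pooled CPM). Exact Poisson 95% intervals are given for pooled values and ratios, and they cover counting error only. Intervals and limits on shares of cells count the cells of these libraries as independent draws, which cells of the same few embryos are not, and are no test between groups. Log2 changes are differences of log2(pooled CPM + 1), and a gene is called 2-fold higher or lower when this difference is at least 1 and either group has 20 CPM or more. Cells had between 544866 and 3461022 counts in total. In a single cell of median depth a count of 0 allows up to 3 counts, or 2.31 to 2.55 CPM by group. All 39 32-cell control cells had more counts of 4 Y-linked genes than of Xist and none of the 39 32-cell mimic cells did, whereas 7 of 30 8-cell control and 8 of 24 8-cell mimic cells did. Every comparison of the 32-cell groups is thus also one between cells with Y-linked transcripts and cells with Xist. The cell numbers in the titles fell into 1 to 3 runs for each group, which are used below to show how even a group was. All 8-cell titles end in the letter a and all 32-cell titles in the letter b. What the letter stands for is not given, and it cannot be told apart from stage. Of 6 cumulus cell markers, Amhr2 had 105.6 pooled CPM in 8-cell control, 46.5 in 8-cell mimic, 5.75 in 32-cell control and 9.07 in 32-cell mimic cells, and the other 5 were below 1 CPM in every group.

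Glycolysis splits glucose into pyruvate in the cytosol, and pyruvate is then reduced to lactate or carried into mitochondria, where the pyruvate dehydrogenase complex turns it into acetyl-CoA for the TCA cycle. Cleavage-stage mouse embryos are known to depend on pyruvate and lactate from the medium and to use little glucose, and glucose use increases towards the blastocyst. Hexokinase, phosphofructokinase and pyruvate kinase catalyse the steps of glycolysis that are practically irreversible, and each is encoded by several genes.

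The mimic copies the mature strand of miR-381-3p, printed here because it defines the treatment. RefSeq places it on GRCm38.p6 at chr12:109726870-109726891, plus strand. Its seed, bases 2 to 8, is in capitals.
miR-381-3p: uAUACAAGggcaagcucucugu
Sites that pair with the seed were searched on the sense strand of the longest annotated 3' untranslated region of each gene (GENCODE M21, GRCm38). The 8-base site was CTTGTATA, and the 7-base sites were CTTGTAT and TTGTATA, both of which lie within the 8-base site. Of the 45 genes, 2 held an 8-base site (4.44%), against 647 of 20775 genes of the table (3.11%). Any of the sites was found in 6 of the 45 (13.3%), against 4497 genes of the table (21.6%). The 2 genes with an 8-base site were Pgk1 (phosphoglycerate kinase, which makes ATP in glycolysis) and Suclg2 (the GTP-forming subunit of succinyl-CoA ligase). Both sites are shown with 10 bases on each side and the site in capitals, starting at base 20 of the region in Pgk1 and at base 1485 in Suclg2.
Pgk1: ccttgactttCTTGTATAgattggcaca
Suclg2: ctgtgtctatCTTGTATAttgatgtttc
The other 4 genes held 7-base sites alone: Pfkp, Pkm and Slc16a1 had 1 each and Pdha1 had 2. A match is a sequence and does not show that the site was bound.

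Both branches were higher in 32-cell than in 8-cell cells, in control by more for glycolysis genes than for TCA cycle genes. In control cells the mean log2(CPM + 1) over the 16 glycolysis genes was 2.59 ± 0.34 (SD over 30 cells) at the 8-cell stage and 5.37 ± 0.52 (SD over 39 cells) at the 32-cell stage, a difference of 2.78. Cells ranged from 1.87 to 3.13 at the 8-cell and from 4.40 to 6.21 at the 32-cell stage, so the stages did not overlap. The same mean over the 16 TCA cycle genes was 5.48 ± 0.43 and 7.62 ± 0.35, a difference of 2.14, again without overlap (4.50 to 6.21 against 6.86 to 8.26). In mimic cells the difference was 2.67 for glycolysis genes, from 2.35 ± 0.67 to 5.02 ± 0.60, and 2.497 for TCA cycle genes, from 5.09 ± 0.99 to 7.59 ± 0.49. That order in mimic is within the spread between cells (pooled SD 0.63 and 0.72) and turned with a pseudocount of 5 CPM, to 1.93 for glycolysis and 1.95 for TCA cycle genes, and without the 2 transporters, at 2.24 for the 14 glycolytic enzymes. In mimic cells 37 of 39 32-cell cells lay above the highest 8-cell cell for each list.

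**Figure D1:**
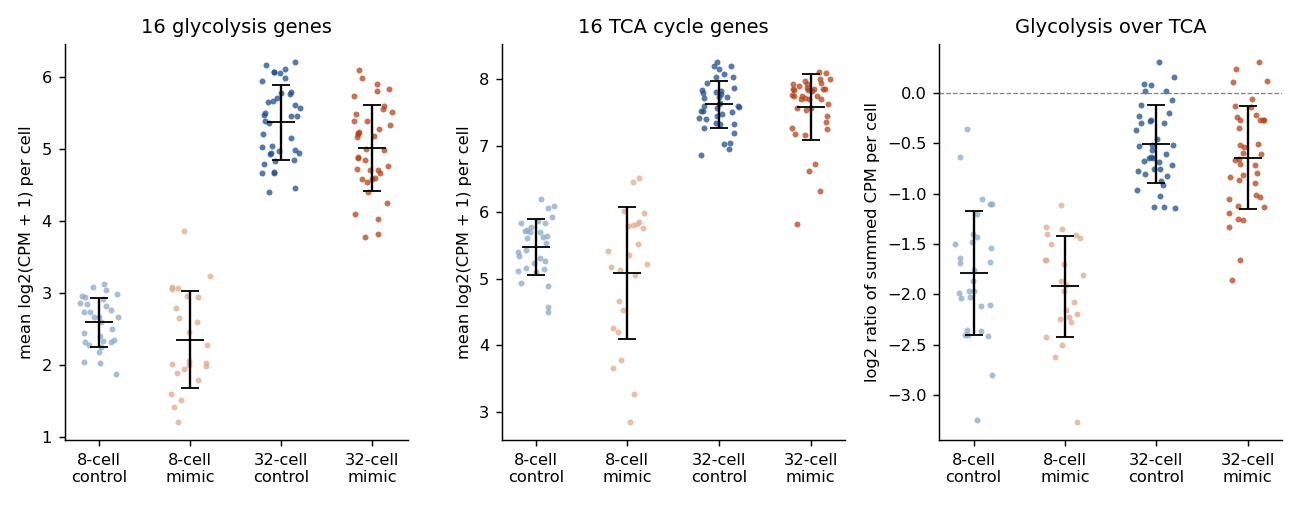
Mean log2(CPM + 1) of the 16 glycolysis genes (left) and of the 16 TCA cycle genes (middle), and the log2 ratio of their summed CPM (right), for each of 132 cells in 4 groups. Points are cells and bars are the mean ± SD over cells; both lists sit higher at the 32-cell stage in both treatments, and the ratio moves up towards 0.

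The balance between the branches was read as the log2 ratio of summed glycolysis CPM to summed TCA cycle CPM in each cell. In control cells it was -1.79 ± 0.62 at the 8-cell and -0.51 ± 0.38 at the 32-cell stage, a difference of 1.28. It was above 0 in 0 of 30 8-cell and in 6 of 39 32-cell control cells. In mimic cells it was -1.92 ± 0.50 and -0.64 ± 0.51, also a difference of 1.28, and it was above 0 in 0 of 24 and in 4 of 39 cells. As sums of pooled CPM, the 16 glycolysis genes had 757 at the 8-cell and 4227 at the 32-cell stage in control and 667 and 3212 in mimic cells. The 16 TCA cycle genes had 2404 and 5543 in control and 2410 and 4721 in mimic. Aldoa (aldolase A, which splits fructose bisphosphate) and Slc2a3 (the high-affinity glucose transporter GLUT3) together held 56.5% to 63.4% of the glycolysis sum in every group. When the 8-cell control cells were limited to the 7 with more Y-linked than Xist counts, the difference in the ratio was 0.74 in place of 1.28.

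Gene by gene, 25 of the 45 were called 2-fold higher and 5 called 2-fold lower in 32-cell than in 8-cell control cells. Of the 45, 39 had 20 CPM or more in one of the groups. Of all 7469 genes with 20 CPM or more in one of the groups, 30% were called 2-fold higher and 20.1% called 2-fold lower. In mimic cells 28 were called higher and 3 lower, of 39 with 20 CPM or more, against 29.1% and 18.8% of all genes that reached it. Of the 16 glycolysis genes, 11 were called higher and 1 lower in each treatment. Of the 16 TCA cycle genes, 10 in control and 12 in mimic were called higher and 0 were called lower. The median log2 change was 2.27 for glycolysis genes and 1.54 for TCA cycle genes in control, and 2.63 and 1.40 in mimic. Over the 6719 genes with a mean of 20 CPM or more over the 4 groups it was 0.15 in control and 0.13 in mimic.

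**Figure D2:**
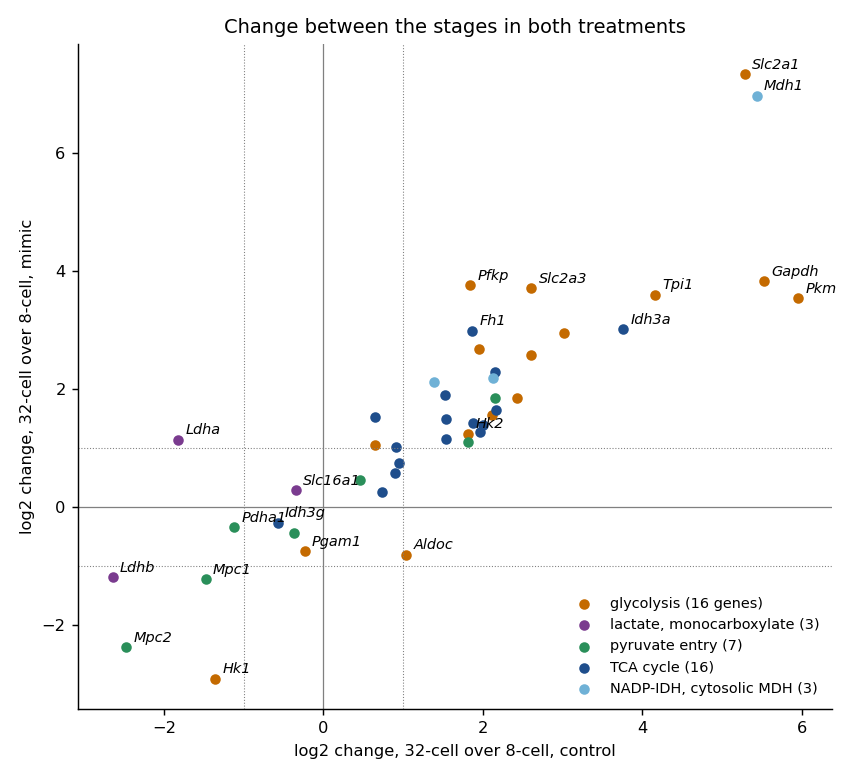
Log2 change of pooled CPM + 1 from the 8-cell to the 32-cell stage for each of the 45 genes in control (horizontal) and mimic (vertical). Points are genes coloured by role and dotted lines mark 2-fold. Most glycolysis and TCA cycle genes sit in the upper right. Hk1, Ldhb, Mpc1 and Mpc2 sit past both lines in the lower left, and Ldha is lower in control and higher in mimic.

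Both glucose transporters were higher at the 32-cell stage. Slc2a1 (GLUT1, the basal glucose transporter; chromosome 4, 119108711 to 119137983 on GRCm38) had 4.06 pooled CPM in 8-cell control (95% interval 3.43 to 4.76), with counts in 2 of 30 cells. It had 0 counts in 8-cell mimic cells, where 3 counts would be 0.0971 CPM, and 0 of 24 cells allows a share of cells with a count, not of cells that express the gene, of up to 12.5%. At the 32-cell stage it had 197 CPM in control and 160 CPM in mimic, with counts in 36 and 37 of 39 cells. That is 48.5-fold higher in control (95% interval 41.2 to 57.4) and at least 1650-fold higher in mimic. Slc2a3 (chromosome 6, 122727809 to 122801640) was the more abundant transporter per transcript length in every group. Across cells it ranged from 0 to 554 CPM with a median of 104.1 in 8-cell control, and from 0 to 3839 with a median of 549 in 32-cell control. In mimic it ranged from 0 to 354 with a median of 60.8 at the 8-cell stage, and from 0 to 2795 with a median of 896 at the 32-cell stage. The stages overlapped, and pooled Slc2a3 was 6.13-fold higher at the 32-cell stage in control and 13.2-fold higher in mimic.

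The make-up of hexokinase, which traps glucose as glucose 6-phosphate, differed between the stages. Hk1, the broadly expressed form, was lower at the 32-cell stage, with 25.5 CPM against 9.35 in control and 49.3 against 5.71 in mimic. Hk2, the form known for induction in tissues that take up much glucose, was higher, with 99.4 against 353 CPM in control and 75.3 against 180 in mimic. Per kilobase of transcript, Hk2 made up 75.1% of the 2 in 8-cell control and 54.3% in 8-cell mimic, and 96.7% and 96.1% at the 32-cell stage. The 8-cell mimic cell with the most Hk1 had 333 CPM of it and 0 of Hk2. The 11 8-cell mimic cells with Xist alone had 22.5 CPM of Hk1 and 84.7 of Hk2. In the 8 with more Y-linked than Xist counts these were 33.7 and 67.6 CPM. Hk1 had counts in 23 of 30 and 16 of 24 8-cell cells, and in 21 of 39 and 7 of 39 32-cell cells. The lower Hk1 in control rests on the 28 8-cell control cells numbered 1 to 30, since the 2 other 8-cell control cells alone gave a log2 change of 0.42 in place of -1.36.

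Phosphofructokinase, the main point of control of glycolysis, was scarce. In 32-cell control cells Pfkl (liver form) had 26.1 CPM, Pfkm (muscle form) 8.56 and Pfkp (platelet form) 3.66. At the 8-cell stage none of the 3 exceeded 8.22 CPM in either treatment. Pfkl was 7.56-fold higher at the 32-cell stage in control and 6.57-fold in mimic, and Pfkp was 35.2-fold higher in mimic (95% interval 22.1 to 59.6), with counts in 2 of 24 and 16 of 39 cells.

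Among the glycolysis genes, Pkm and Gapdh, both of later steps, had the largest log2 changes between the stages in control cells. This did not hold for the later steps as a whole, since Eno1 and Pgam1 differed by less than the earlier Gpi1. Pkm (pyruvate kinase, the last step; chromosome 9, 59656368 to 59679375) ranged from 0 to 51.6 CPM with a median of 0 across 8-cell control cells and from 118.3 to 1497 with a median of 630 across 32-cell control cells. These ranges did not overlap, and pooled Pkm was 68.8-fold higher (95% interval 61.7 to 76.96). Gapdh (glyceraldehyde 3-phosphate dehydrogenase, often used as a reference gene; chromosome 6, 125161715 to 125166467) ranged from 0 to 17.6 CPM with a median of 0, and from 124 to 458 with a median of 198. It was 59.5-fold higher (95% interval 49.8 to 71.6), again without overlap. Tpi1 (triosephosphate isomerase) was 22.4-fold higher and Pgk1 10.5-fold. Aldoa had counts in every cell of the series and ranged from 76.3 to 811 CPM across 8-cell and from 906 to 1896 across 32-cell control cells, a pooled ratio of 4.36. Gpi1 (glucose phosphate isomerase) and Eno1 (enolase) were 5.58-fold and 3.95-fold higher. In mimic cells Pkm was 11.95-fold, Gapdh 16.7-fold and Tpi1 15.2-fold higher at the 32-cell stage, and both Pkm and Gapdh overlapped between the stages. Pgam1 (phosphoglycerate mutase) differed by less than 2-fold, with 66.2 and 56.2 CPM in control and 70.01 and 41.2 in mimic. Aldoc (brain aldolase) had at most 2.75 CPM and had 0 counts in 8-cell control cells. Several of these genes share sequence with other annotated genes. Of all 50-base stretches of the annotated transcripts, 82.5% in Gapdh, 72.2% in Eno1, 68% in Pgk1, 41.5% in Pgam1, 34.4% in Pkm and 19.3% in Gpi1 also occur in transcripts of other genes. Of the genes that share them, 48 for Gpi1, 5 for Gapdh, 1 for Eno1 and 0 for Pgk1, Pgam1 and Pkm were in the table by symbol, and how such reads were assigned was not tested.

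Lactate genes showed another order. Ldha, which favours the conversion of pyruvate to lactate (chromosome 7, 46841475 to 46855627), ranged from 0 to 250 CPM with a median of 48.6 in 8-cell control cells and from 0 to 159.1 with a median of 0 in 32-cell control cells. In mimic cells it ranged from 0 to 309 with a median of 2.79 at the 8-cell stage and from 0 to 372 with a median of 68.3 at the 32-cell stage. Pooled Ldha was thus 3.67-fold lower at the 32-cell stage in control, from 71.2 to 19.4 CPM, and 2.23-fold higher in mimic, from 38.95 to 86.98 CPM. The control direction also rests on the 28 8-cell control cells numbered 1 to 30, because the 2 other cells had 1.06 CPM and gave a log2 change of 3.31 in place of -1.82. Within 8-cell control, Ldha was 38.2 CPM in the 23 cells with Xist alone and 149.7 CPM in the 7 with more Y-linked counts. Ldhb, which favours the reverse reaction, had at most 8.87 CPM. Slc16a1 (MCT1, a carrier of lactate and pyruvate across the plasma membrane) lay between 99.1 and 132 CPM in all 4 groups.

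Pyruvate entry split into parts that were lower and parts that were higher at the 32-cell stage. Mpc1 and Mpc2, which together form the mitochondrial pyruvate carrier, were both lower. Mpc2 (chromosome 1, 165460637 to 165481214) ranged from 86.7 to 350 CPM with a median of 211 across 8-cell control cells, and from 0 to 110 with a median of 33.9 across 32-cell control cells. It was 5.67-fold lower in control and 5.27-fold lower in mimic, where 8-cell cells ranged from 146.7 to 657 CPM and 32-cell cells from 15.6 to 173. Mpc1 was 2.81-fold and 2.35-fold lower. Of the pyruvate dehydrogenase complex, Pdha1 (the catalytic alpha subunit) had 1122 CPM in 8-cell control and 834 in 8-cell mimic cells. It was 2.18-fold lower at the 32-cell stage in control, at 515 CPM, and had 660 CPM in 32-cell mimic cells, a log2 change of -0.34. Pdha1 lies on the X chromosome, and against the 7 8-cell control cells with more Y-linked than Xist counts its log2 change was -0.62 in place of -1.12. Pdhb (the beta subunit) went from 472 to 650 CPM in control and from 595 to 814 in mimic, which is under 2-fold. Dlat (the acetyltransferase core of the complex) was higher, with 45.5 against 162.6 CPM in control and 55.1 against 119 in mimic. In mimic the log2 change of 1.09 was 0.68 with only the Xist cells of both stages and 0.84 without the first 32-cell mimic run, both under 2-fold. Pdk1, a kinase that inactivates the complex, and Pcx (pyruvate carboxylase, which feeds oxaloacetate to the cycle) had at most 9.61 CPM.

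The TCA cycle was higher at the 32-cell stage at most of its steps. Mdh2 (mitochondrial malate dehydrogenase) had the highest level of the cycle per kilobase of transcript in every group, and its pooled level was 642 and 645 CPM at the 8-cell and 1193 and 967 CPM at the 32-cell stage, under 2-fold in both treatments. Sucla2 (the ATP-forming subunit of succinyl-CoA ligase) went from 264 to 769 CPM in control and from 180 to 508 in mimic. Idh3a (the catalytic subunit of NAD-dependent isocitrate dehydrogenase; chromosome 9, 54586334 to 54604661) differed most in control, by 13.9-fold (95% interval 13.1 to 14.7), and by 8.25-fold in mimic. It ranged from 0 to 131 CPM across 8-cell control and from 135 to 1011 across 32-cell control cells, without overlap. Its partner subunits differed less. Idh3b had 213 CPM at the 32-cell and 112.6 CPM at the 8-cell stage in control. Idh3g, the only TCA cycle gene of the 16 with a lower value at the 32-cell stage, had 299.7 against 446 CPM in control and 454 against 546 in mimic. Idh3g lies on the X chromosome, and the 7 8-cell control cells with more Y-linked than Xist counts had 288 CPM, so the control direction turned among them. All 4 subunits of succinate dehydrogenase (Sdha, Sdhb, Sdhc and Sdhd) were called 2-fold higher in both treatments, by 2.90-fold to 3.96-fold in control and by 2.27-fold to 3.77-fold in mimic. In mimic the log2 change of Sdhd was 0.50 in place of 1.27 with only the Xist cells of both stages, and that of Sdhc 0.87 in place of 1.16 without the first 32-cell mimic run. Idh3b, called higher in mimic at a log2 change of 1.02, was between 0.74 and 0.99 under 3 alternatives. Fh1 (fumarase) was 3.75-fold higher in control and 8.36-fold in mimic, and Suclg1 and Suclg2 were 3.13-fold to 5.03-fold higher. Dld (the dihydrolipoamide dehydrogenase shared by the pyruvate and oxoglutarate dehydrogenase complexes) was 4.06-fold higher in control and 2.63-fold in mimic. Cs (citrate synthase, the entry step) and Ogdh (oxoglutarate dehydrogenase) were under 2-fold in both.

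The 3 dehydrogenases outside the cycle proper were called 2-fold higher in both treatments. Mdh1 (cytosolic malate dehydrogenase, part of the malate-aspartate shuttle; chromosome 11, 21556787 to 21572367) had 3.40 CPM in 8-cell control with counts in 5 of 30 cells, and 0 counts in 24 8-cell mimic cells. It had 189 CPM in 32-cell control and 124 CPM in 32-cell mimic cells, which is 55.7-fold and at least 1280-fold higher. Idh1 and Idh2, the cytosolic and mitochondrial NADP-dependent isocitrate dehydrogenases, were 2.62-fold and 4.47-fold higher in control and 4.36-fold and 4.65-fold higher in mimic. The Idh2 value in control rests on the 8-cell control cells numbered 1 to 30, and without them its log2 change was 0.37 in place of 2.13. The same held for Hk2, at 0.27 in place of 1.82.

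**Figure D3:**
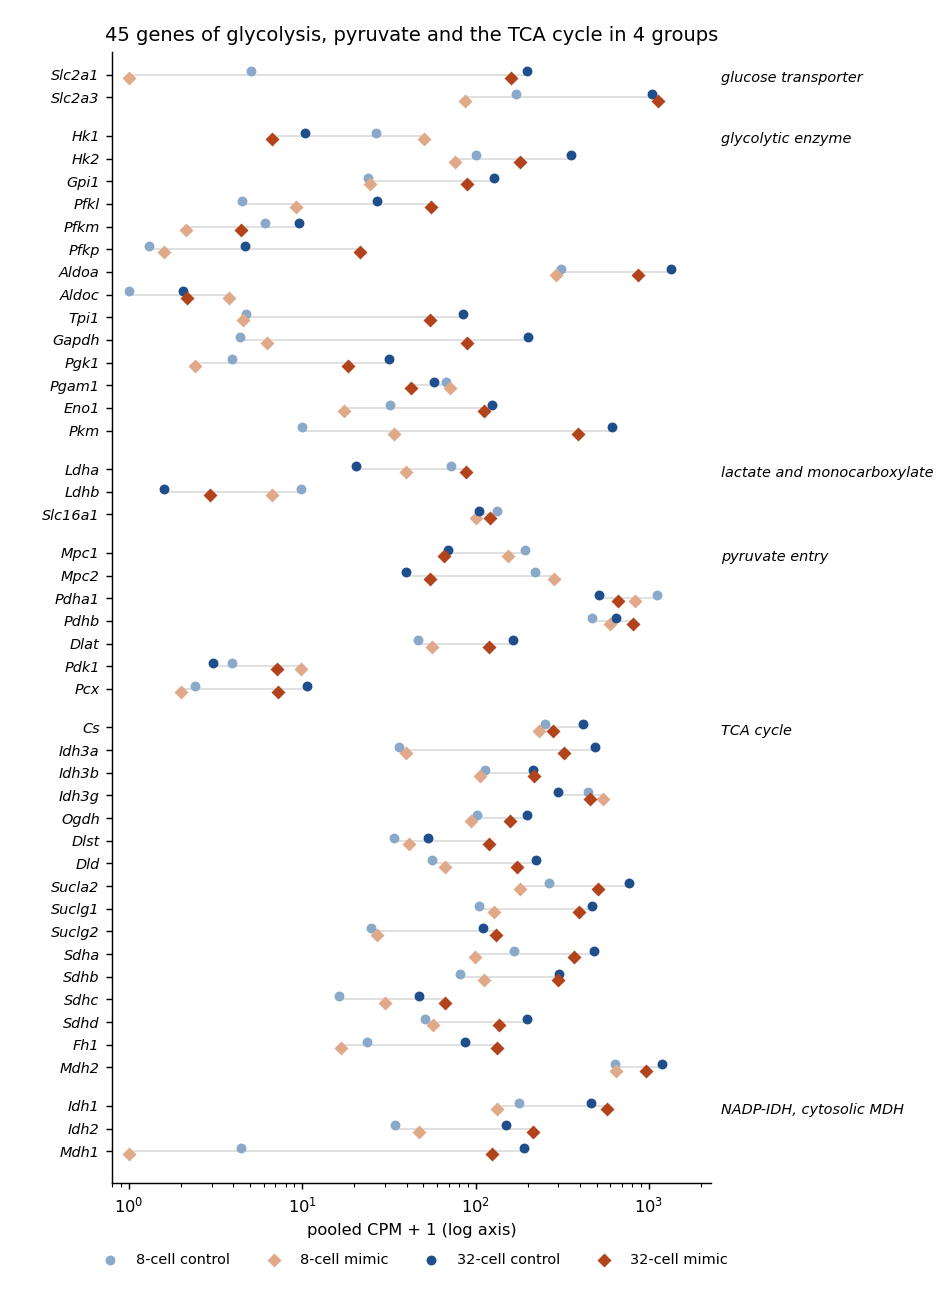
Pooled CPM + 1 of each of the 45 genes (log axis) in 8-cell control, 8-cell mimic, 32-cell control and 32-cell mimic cells, grouped by role. Circles are control and diamonds mimic, pale at the 8-cell and dark at the 32-cell stage; the stages are further apart than the treatments for most genes.

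Between mimic and control at the 8-cell stage the branches overlapped widely. The mean log2 level was lower in mimic by 0.24 for glycolysis genes and by 0.39 for TCA cycle genes, each less than 1 SD between cells (0.52 and 0.73), and the log2 ratio differed by -0.13. The number of genes with a count was below 5000 in 3 of 24 8-cell mimic cells and in 0 of 30 8-cell control cells; whether this moved the levels was not tested. Of the 45 genes, 33 had 20 CPM or more in either group. Of these 33, 1 was called 2-fold higher and 0 were called lower, against 6.96% and 6.09% of all genes that reached it. The called gene was Pkm, with 32.8 CPM in mimic (95% interval 30.8 to 34.9) and 8.90 in control (95% interval 7.96 to 9.92). It had counts in 9 of 24 mimic and 11 of 30 control cells, with medians of 0 in both and a highest cell of 285 and 51.6 CPM. With only the Xist cells of both groups its log2 change was 0.40 in place of 1.77.

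At the 32-cell stage the mean glycolysis level was lower in mimic by 0.35, less than 1 SD between cells (0.56), and the mean TCA cycle level by 0.03. Of the 16 glycolysis genes 12 had a lower value in mimic, with a median log2 change of -0.58, and of the 16 TCA cycle genes 10 had a lower value, with a median of -0.27. The median over the 6719 genes of 20 CPM or more was 0.00. Of the 45 genes, 39 had 20 CPM or more in either group. Of these 39, 4 were called 2-fold higher and 1 called lower, against 6.87% and 5.36% of all genes that reached it.

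Ldha was higher in mimic. It had 86.98 CPM in mimic (95% interval 84.5 to 89.5) and 19.4 in control (95% interval 18.3 to 20.6), a ratio of 4.47, with counts in 32 of 39 and 19 of 39 cells. By runs of consecutive cell numbers it had 82.5 to 93.6 CPM in 3 mimic runs and 15.1 and 22.4 CPM in 2 control runs. Over the alternative settings its log2 change lay between 1.91 and 2.78. At the 8-cell stage Ldha was 71.2 CPM in control and 38.95 in mimic, the other way round but under 2-fold (log2 change -0.85). The 2 8-cell control cells of the second run had 1.06 CPM, below the mimic value.

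Gapdh was the 1 gene called lower. Mimic cells ranged from 7.33 to 198 CPM with a median of 89.9 and control cells from 124 to 458 with a median of 198. The pooled values were 87.8 and 201 CPM, a 2.29-fold difference, with 75.6 to 101.9 CPM in the mimic runs and 201 in both control runs. Hk2, at 180 against 353 CPM, lay just inside 2-fold with a log2 change of -0.97, and Aldoa, Tpi1 and Pkm were lower in mimic by 1.56-fold to 1.57-fold. By run, Pkm had 749 and 409 CPM in control and 484, 290 and 383 CPM in mimic. Tpi1 had 96.7 and 65.6 CPM in control runs and 69.98, 50.8 and 36.2 CPM in mimic runs. The runs of the treatments thus overlapped for Pkm and Tpi1. Those of Aldoa did not, with 1475 and 1152 CPM in control and 904, 832 and 845 CPM in mimic. Pgk1, whose 3' region holds an 8-base site, had 17.4 CPM in mimic and 30.9 in control. By run, Pgk1 had 41.6 and 14.9 CPM in control and 18.3, 21.3 and 11.99 CPM in mimic. The second control run thus lay within the range of the mimic runs. Suclg2, which holds the other 8-base site, had 130 CPM in mimic and 108.9 in control, and its runs overlapped between the treatments as well. Of the 4 genes with 7-base sites, Pkm was lower in mimic and Pfkp, Pdha1 and Slc16a1 were higher.

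The other genes called higher in 32-cell mimic cells were Dlst, Pfkl and Pfkp. Dlst (the succinyltransferase core of the oxoglutarate dehydrogenase complex; chromosome 12, 85110833 to 85134845) had 118.4 CPM in mimic and 52.3 in control, with cells from 0 to 407 and from 0 to 272 CPM. With every cell thinned to the same total its log2 change was 0.85 in place of 1.16, under 2-fold. Pfkl had 54.0 and 26.1 CPM, 2.07-fold, but its log2 change was under 1 with a pseudocount of 5 CPM (0.92), without the first (0.82) or the second (0.91) mimic run, without the second control run (0.82) and in the TE-like cells described below alone (0.60). Pfkp had 20.5 and 3.66 CPM, a ratio of 5.60 (95% interval 4.82 to 6.53), with counts in 16 and 5 of 39 cells and a median of 0 in both. By run its pooled level was 0.323 and 8.62 CPM in control and 32.1, 11.5 and 15.3 CPM in mimic. Its log2 change of 2.21 ranged from 1.07 to 4.58 over the alternatives, the lowest in ICM-like cells alone, where both levels (14.5 and 6.39 CPM) were under 20 CPM and no call was made. Of the 3 X-linked genes of the 45, Pdha1 had 660 CPM in mimic and 515 in control, Idh3g 454 and 299.7, and Pgk1 17.4 and 30.9. The median log2 change of 193 X-linked genes without Xist was 0.40 and that of 6525 other genes 0.00.

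**Figure D4:**
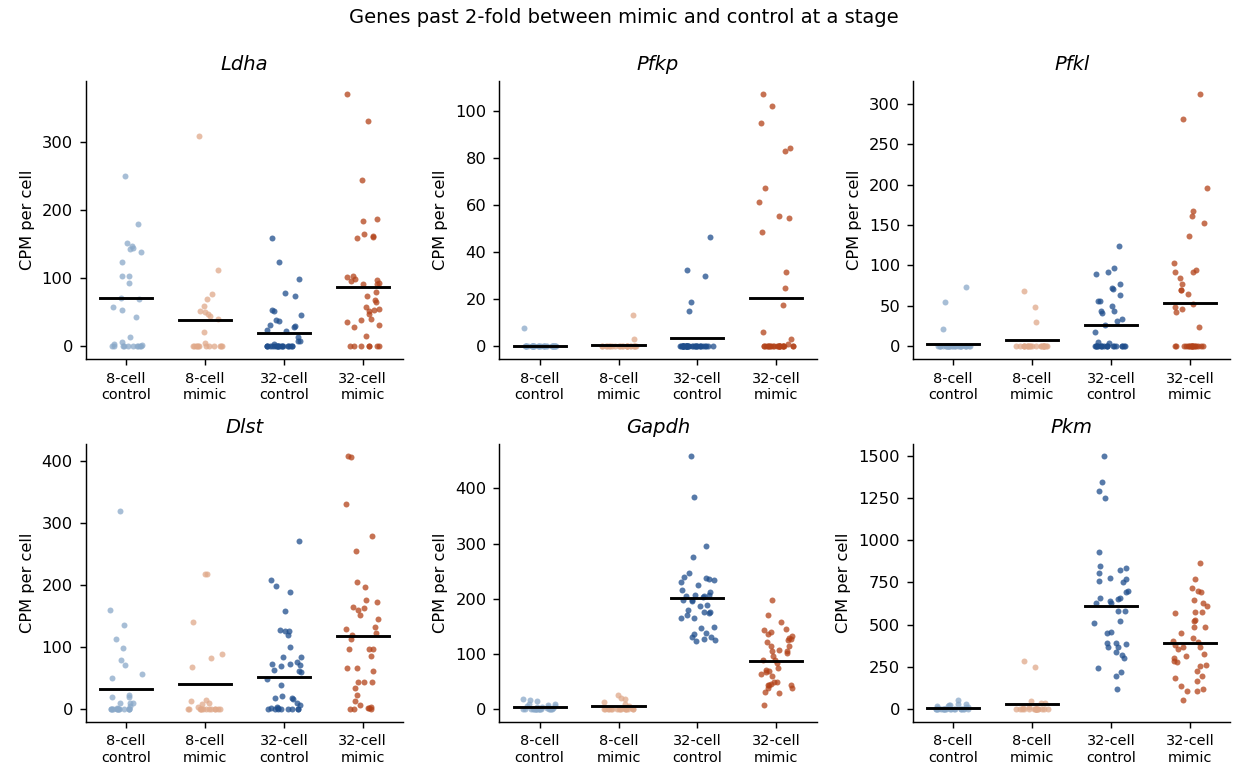
CPM per cell of the 6 genes called 2-fold higher or lower between mimic and control at either stage, for each of 132 cells in 4 groups. Points are cells and black lines the pooled CPM of a group; Ldha, Pfkp, Pfkl and Dlst sit higher and Gapdh lower in 32-cell mimic than in 32-cell control cells, and Pkm has its highest 8-cell cell in mimic.

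The 78 32-cell cells were also split by lineage, since the first lineages, the inner cell mass (ICM) and the trophectoderm (TE, the outer layer that forms the placenta), are present at this stage. Clusters were formed without the 45 genes, related metabolic genes and the markers. By pooled CPM, 9 of 9 ICM markers were higher in one cluster and 9 of 9 TE markers in the other in each treatment. By the mean of log2(CPM + 1) over the cells of both treatments together these were 8 of 9 and 9 of 9. The clusters are called ICM-like and TE-like. Over both treatments the 10 leading genes by fold held 0 TE markers in the TE-like cluster, where Zfp185 led, and the 2 ICM markers Fgf4 and Tdgf1 in the ICM-like cluster, where Otx2 led. ICM-like cells were 25 of 39 in control (64.1%, 95% interval 47.2 to 78.8) and 12 of 39 in mimic (30.8%, 95% interval 17 to 47.6). By the sign of the mean standardised level of the ICM markers less that of the TE markers they were 25 and 17 cells. By this score 6 of the 27 TE-like mimic cells and 1 of the 12 ICM-like mimic cells fell in the other class, and 0 of the 39 control cells did.

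Slc2a3 and Hk2 were lower in ICM-like than in TE-like cells by more than 2-fold in both treatments. In control, Slc2a3 ranged from 0 to 1004 CPM with a median of 230 in ICM-like cells and from 360 to 3839 with a median of 1893 in TE-like cells, a pooled ratio of 6.21. In mimic the medians were 393 and 1111 CPM, and the pooled ratio was 3.30. Hk2 was 5.51-fold higher in TE-like than in ICM-like control cells (665 against 121 CPM) and 2.55-fold higher in mimic (218 against 85.4 CPM). In control 38 of the 45 genes had 20 CPM or more in either class. Of these 38, 1 was called 2-fold higher in ICM-like cells and 4 called lower, against 11.9% and 10.1% of all genes that reached it. Beside Slc2a3 and Hk2 the lower ones were Tpi1 (55.7 against 122 CPM) and Idh3a (314 against 718 CPM), and the higher one was Ldha (25.7 against 11.1 CPM). With every cell thinned to the same total Tpi1 (log2 change -0.93) and Ldha (0.76) were under 2-fold. In mimic 1 was called higher and 2 lower, again of 38 that reached it, against 7.44% and 9%. The higher one was Idh1 (913 against 441 CPM), which was under 2-fold with the classes set by marker score (log2 change 0.86). The log2 ratio of glycolysis to TCA cycle sums was lower in ICM-like cells, at -0.67 ± 0.27 against -0.21 ± 0.38 in control and -1.08 ± 0.30 against -0.45 ± 0.46 in mimic. With Slc2a3 left out of the sums, the difference between the classes went from -0.47 to 0.03 in control and from -0.63 to -0.27 in mimic. The median log2 change from TE-like to ICM-like cells was -0.10 over the 16 glycolysis genes and -0.07 over the 16 TCA cycle genes in control, with 7 of each above 0. In mimic these medians were -0.24 and 0.13, with 5 and 10 above 0.

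**Figure D5:**
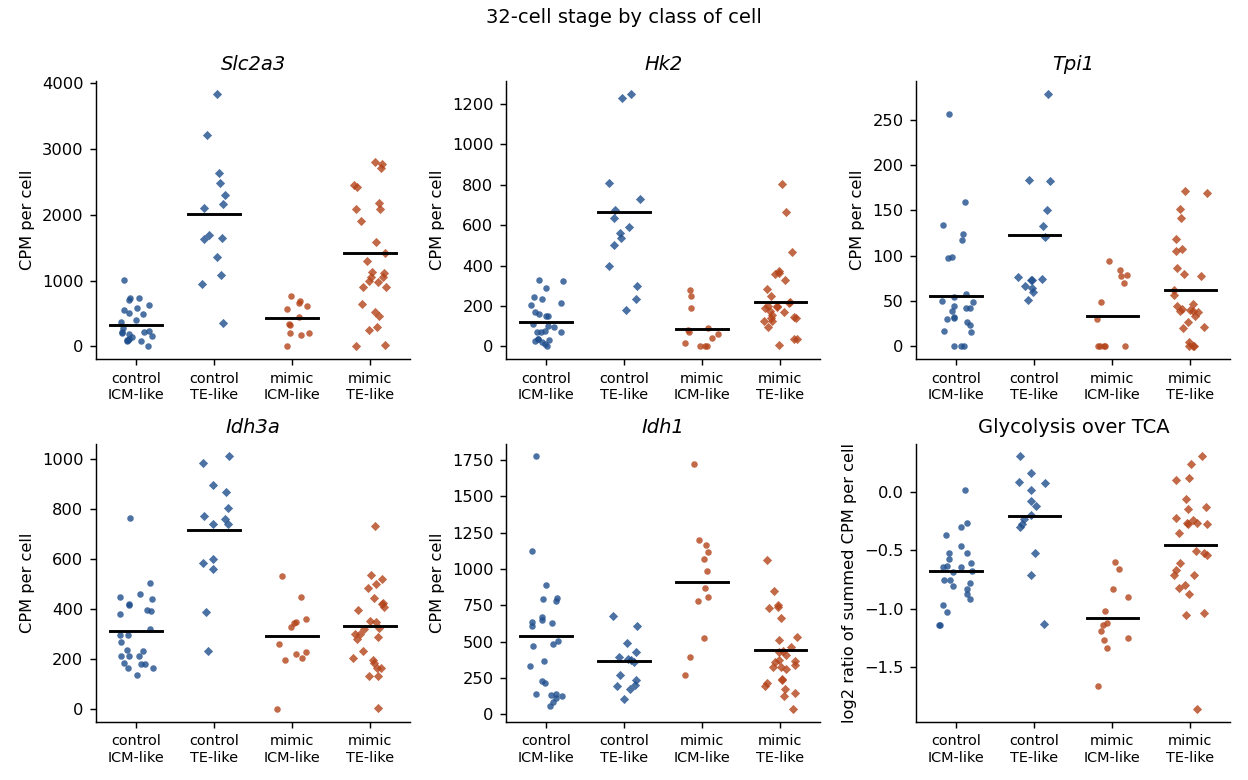
CPM per cell of Slc2a3, Hk2, Tpi1, Idh3a and Idh1 and the log2 ratio of glycolysis to TCA cycle sums in ICM-like and TE-like 32-cell cells of each treatment. Points are cells and black lines the pooled CPM, or the mean for the ratio; TE-like cells carry more Slc2a3 and Hk2 in both treatments.

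Because the classes differed in number between the treatments, mimic and control were also compared within each. The 6 TE-like mimic cells with an ICM score are part of the TE-like values, against 0 such control cells. With the classes set by marker score, TE cells had 233.6 CPM of Hk2 in mimic and 664.7 in control. For Slc2a3 these values were 1674 and 2014 CPM. The part of the 6 cells in the values of other single genes named below was not tested. The mean glycolysis level was lower in mimic by 0.44 on the log2 scale in ICM-like and by 0.48 in TE-like cells, each less than 1 SD between cells (0.48 and 0.59). Of the 16 genes, 1 was called higher and 1 lower in ICM-like cells, against 10.9% and 9.89% of all genes, and 1 higher and 2 lower in TE-like cells, against 12% and 7.74%. In the same comparisons the log2 ratio to TCA cycle genes was lower by 0.41 (SD between cells 0.28) and 0.24 (SD 0.44). Below the lowest control cell of the class lay 5 of 12 ICM-like and 1 of 27 TE-like mimic cells. Ldha was higher in mimic in both, with 99.5 against 25.7 CPM in ICM-like and 81.9 against 11.1 CPM in TE-like cells. Dlst was higher in both as well, with 126 against 57.3 CPM and 115.5 against 45.8 CPM. Gapdh was lower in both, with 103.1 against 195 CPM and 81.7 against 209 CPM, the first of these under 2-fold. In TE-like cells alone, Hk2 was 3.05-fold lower in mimic (218 against 665 CPM) and Idh3a 2.16-fold lower (333 against 718 CPM), whereas in ICM-like cells they were 85.4 against 121 and 293 against 314 CPM. Pooled Slc2a3, nearly equal between treatments over all cells (1133 and 1047 CPM), was 429 against 324 CPM in ICM-like and 1417 against 2014 CPM in TE-like cells.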

How the data were processed

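Whole-transcript Smart-seq2 libraries of single mouse embryo cells were sequenced on a NextSeq550. According to the submitters' processing notes, STAR (version 2.5.1b) and RSEM (version 1.3.0) were used, and the genome build was mm10. The authors deposited RSEM expected counts for each gene in each cell, without normalisation. All were whole numbers, so they appear to have been rounded. The study's filter (at least 3000 genes with a count, under 10% mitochondrial counts) removed 0 of 132 cells. The 13 mitochondrial genes were then left out of totals. No duplicate cells or repeated symbols were found.

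Each group is 1 sample, so values and fold limits were used in place of tests. Cells were clustered with Seurat (version 5.3.0) in R (version 4.3.3), using odd-ranked genes, 2000 variable genes, 25 principal components and resolution 1. Sites and gene positions are from GENCODE M21 on the same build, a different release from that used for counting. The 4 Y-linked genes were Ddx3y, Eif2s3y, Kdm5d and Uty, and Xist alone means 20 CPM or more of Xist and less of these. The functions were tested on simulated data. The 45 genes and all lists were chosen with earlier results of these data known. The members named were those past 2-fold, at most 12 for a comparison by size, with the 2 most abundant of each role and the X-linked ones. Ldhb, Pfkm and other members under 20 CPM were named to account for all 45. Values within a class, and the members shown for runs of cell numbers, were chosen after seeing the data. With no molecular identifiers, intervals and limits cover counting error only. No doublet caller was run, as cells were picked singly.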

Additional observations from a re-analysis of the deposited data

How the results depend on the processing

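Over the alternative values of the levels and ratios, 9 had the other sign than the value reported, each smaller than 1 SD between cells, and none of the 59 for the stages did. For the stages, a pseudocount of 5 CPM gave 2.08 and 1.75 for the glycolysis and TCA cycle levels in control and 1.93 and 1.95 in mimic, where the order of the branches turned, as a larger pseudocount shrinks low values. Cells with more Y-linked than Xist counts gave 0.74 for the ratio in control. Scaling by size factors moved the median of all genes by under 0.1. The count of members called between mimic and control at the 8-cell stage was least stable: 1 as reported, 2 with size factors, 2 with thinning, 7 with no filter, 0 with a 100 CPM filter, 7 with means over cells, 8 without the 28 8-cell control cells of the first run (which leaves 2), 2 without the second run, and 13 when limited to cells with more Y-linked than Xist counts. With the size factors 1 of the 2 was lower. At the 32-cell stage the count was 2 in place of 5 with a 100 CPM filter, and in the control classes 3 in place of 5 with thinning. The ratio between the control classes reversed to 0.03 without Slc2a3. Without the first run of 8-cell control cells the stage change in control reversed for Hk1 (0.42) and Ldha (3.31). The alternatives for the classes were added after seeing the data. Of 581 alternative values of single called members, 561 stayed at or past 2-fold in the same direction and 20 did not, of which 2 were reversed. No paired analysis was possible because the numbers in the titles only name cells and no test was made. Depth limits the values of genes under 20 CPM most.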

Other observations

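A further 69 genes of the same pathways, their regulators and neighbouring routes were read in the same way. Between the stages, 37 of the 69 in control and 35 in mimic reached 20 CPM on either side. In control cells 21 were called 2-fold higher and 5 lower at the 32-cell stage, and in mimic cells 19 and 5. The median log2 changes over all 69 were 0.55 and 0.43. Of all genes that reached 20 CPM on either side, 30% were called higher and 20.1% lower in control, and 29.1% and 18.8% in mimic. Pfkfb3, which makes the fructose 2,6-bisphosphate that activates phosphofructokinase, had 81.3 CPM in 8-cell and 0 counts in 32-cell control cells (at least 1540-fold lower), and 97.2 and 3.06 CPM in mimic. Its relatives were the other way round in control, with Pfkfb1 at 0.762 and 31.3 CPM and Pfkfb4 at 1.28 and 21.6 CPM. Ogdhl, a relative of oxoglutarate dehydrogenase, had 1.01 and 48.3 CPM in control and 0.194 and 90.6 CPM in mimic. Slc25a1, the mitochondrial citrate carrier, had 2.45 and 57.6 CPM in control, and 0 counts and 78.6 CPM in mimic (at least 810-fold higher). Aco1, the cytosolic aconitase, had 5.80 and 134 CPM in control. In mimic, Pck2 (mitochondrial phosphoenolpyruvate carboxykinase) had 0.162 and 62.5 CPM, Pgls (a pentose phosphate enzyme) 1.10 and 39.7 CPM, and Bpgm (bisphosphoglycerate mutase) 38.5 and 1.62 CPM.

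Between mimic and control, 28 of the 69 reached 20 CPM at the 8-cell and 34 at the 32-cell stage. Among all genes that reached it, 6.96% were called higher and 6.09% lower at the 8-cell and 6.87% and 5.36% at the 32-cell stage. From the 69, 1 was called higher and 3 lower at each stage. At the 8-cell stage these were Aco1 (30.4 CPM in mimic, 5.80 in control), Slc2a8 (a glucose transporter; 21.7 and 61.4 CPM), Got1 (cytosolic aspartate aminotransferase; 45.7 and 102.7 CPM) and Sdhaf2 (an assembly factor of succinate dehydrogenase; 20.5 and 44.1 CPM). At the 32-cell stage they were Pck2 (62.5 and 24.8 CPM), Hkdc1 (a hexokinase domain protein; 5.56 and 44.1 CPM), Pdpr (a regulator of pyruvate dehydrogenase phosphatase; 3.32 and 28.1 CPM) and Slc2a8 (57.2 and 117.6 CPM). Slc2a8 was thus lower in mimic at both stages. None of these values had a replicate check.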
